A study of Mus musculus with 6 samples.

Results

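The BCL2 family of apoptosis regulators was described here across 6 mouse macrophage samples, through the 10 genes Bcl2, Bcl2l1, Mcl1, Bax, Bak1, Bcl2l11, Bad, Bid, Bbc3 and Pmaip1. They were matched by symbol in the 22063 genes of the authors' table. The rule uses no measured value, but the set was chosen with earlier results of these data known. Each of the 10 was present once in the table and had enough reads to be tested, among 11402 tested genes. RNA sequencing compared 3 samples of CAR-Ms with 3 of CAR-Trem2-Ms. Both groups are macrophages that grew for 7 days with 20 ng/mL M-CSF, the growth factor that drives macrophage differentiation. Both were infected with lentivirus to make CAR-Ms, macrophages with a chimeric antigen receptor (an engineered receptor for a chosen surface target). The genotype field gives CAR-Ms as WT and CAR-Trem2-Ms as TERM2+, spelled so. For CAR-Trem2-Ms the treatment field adds induction by VD3 (1 µM, 24 h) and sorting in a flow cytometer, and a treatment text shared by all samples also names VD3. Trem2 status, sorting and any difference in VD3 therefore cannot be told apart. The sources used here do not give the promoter of the construct, the target of the receptor or the age of the mice. No label says whether replicates were separate cultures or animals. The p-values therefore set the difference between groups only against the spread of these samples, and that spread may be technical.

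Proteins of the BCL2 family decide whether the outer mitochondrial membrane stays closed. Anti-apoptotic members (Bcl2, Bcl2l1 or BCL-XL, and Mcl1) hold the effectors Bax and Bak1 in check, and the effectors otherwise form pores that release cytochrome c and start the caspase cascade. The BH3-only members (Bcl2l11 or BIM, Bad, Bid, Bbc3 or PUMA, and Pmaip1 or NOXA) sense stress or loss of growth factors and bind the anti-apoptotic members, and some of them also activate the effectors. Some myeloid cells are known for a strong need of Mcl1, whose protein is short-lived, and for the inducible survival protein A1, which mice make from several Bcl2a1 genes. Much of the family's control lies in protein turnover and binding, which RNA does not show.

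Libraries held between 9804959 and 15913100 reads assigned to genes. Trem2 read 74.1 to 78.7 CPM (read counts scaled to a common library size with TMM factors) in CAR-Ms against 182.5 to 196.0 in CAR-Trem2-Ms. The 8 macrophage markers summed to 3455 to 3478 CPM in CAR-Ms against 3934 to 3956 in CAR-Trem2-Ms. In the test described below, 6 of the 8 were higher and 2 lower, against 40.9% and 40.1% of all tested genes. The 5 keratinocyte markers stayed under 1 CPM in every sample, although the labels give the tissue as skin. Neutrophil markers were the main other signal, at 15.5 to 27.4 CPM in CAR-Ms against 2.22 to 4.99 in CAR-Trem2-Ms for 7 genes, with Elane, Ly6g and Mpo under 1 CPM throughout. Lymphocyte markers summed to 7.84 to 12.3 and 4.35 to 6.16 CPM. The share of mitochondrially encoded reads was 4.6 to 4.7% in CAR-Ms against 13.4 to 13.8% in CAR-Trem2-Ms. The part of these differences in the results was not tested, apart from leaving out the mitochondrially encoded genes, which changed no call among the 10 members.

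Of the 10 members, 7 were higher in CAR-Trem2-Ms, 2 were lower (Bak1 and Bcl2l11) and 1 (Bad) did not pass (edgeR's quasi-likelihood test, Benjamini-Hochberg adjusted p under 0.05 over all tested genes). The comparison was broad: 81.1% of all tested genes passed, with 40.9% higher and 40.1% lower. A count of 9 in 10 is therefore close to the background. The groups did not overlap in CPM for 9 of the 10 members, against 81.8% of tested genes, and 2 members (Bax and Bcl2l11) passed with a change of at least 2-fold, against 33.0%. The median log2 fold change of the members was 0.56, and that of all tested genes was 0.03. The split of the members depended on the scale. With the authors' TPM, a length-scaled value, limma on log2(TPM + 1) called 2 members higher (Bax and Bbc3) and 6 lower, against 17.5% of genes higher and 64.2% lower. With upper quartile factors 8 members were higher and 2 lower, against 50.1% and 31.6% of genes, and with total-count scaling 6 and 2, against 36.4% and 44.7%. The median of all genes was -0.63 on log2(TPM + 1), and the directions below are those of counts with TMM factors unless TPM is named. In RNA from bulk cells, a change in the share of cells that make a transcript and a change in the amount per cell cannot be told apart.

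**Figure D1:**
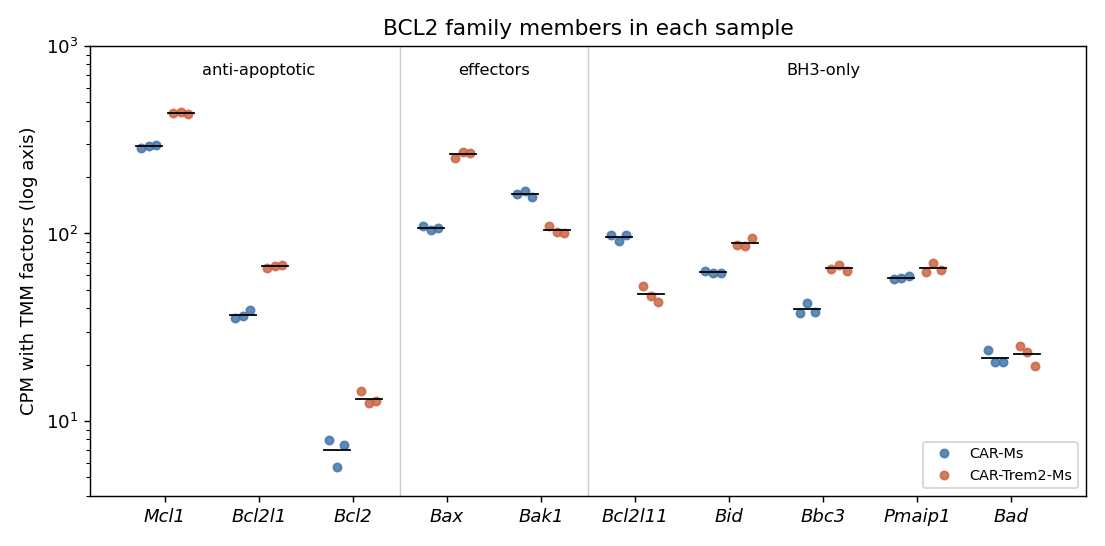
Each point is 1 sample's level of a member in CPM with TMM factors, on a log axis, with blue for CAR-Ms, orange for CAR-Trem2-Ms and a black line at the mean of 3. The groups are separate for every member other than Bad, and Bak1 and Bcl2l11 are the members with the lower points in CAR-Trem2-Ms.

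The sequences before the starts of Bax and Bcl2l11 are shown first, because these members had the largest rise and the largest fall of the 10 on the count scale. Both stretches cover the 250 bases before the RefSeq start (GRCm38.p6), are written 5′ to 3′ in the direction of the gene, and overlap no exon of GENCODE M21. Bax lies on the minus strand at chr7:45466899-45467148, and Bcl2l11 on the plus strand at chr2:128125788-128126037. Capitals mark the matches to motifs searched on both strands. In Bax they are an E-box (CACGTG) that ended 4 bases before the start and a p53 half-site. In Bcl2l11 they are a FOXO site (GTAAACA).
Bax: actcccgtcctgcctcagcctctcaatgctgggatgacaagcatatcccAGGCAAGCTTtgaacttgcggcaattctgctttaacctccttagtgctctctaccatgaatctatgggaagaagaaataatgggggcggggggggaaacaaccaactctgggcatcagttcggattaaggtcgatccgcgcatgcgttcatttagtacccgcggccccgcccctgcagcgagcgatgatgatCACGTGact
Bcl2l11: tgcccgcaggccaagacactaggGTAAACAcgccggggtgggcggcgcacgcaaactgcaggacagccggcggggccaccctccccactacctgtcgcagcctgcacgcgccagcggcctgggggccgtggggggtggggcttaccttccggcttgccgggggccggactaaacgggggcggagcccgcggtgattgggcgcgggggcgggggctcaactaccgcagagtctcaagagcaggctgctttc
RefSeq windows were found for 9 of the 10 members (not Pmaip1), 15 in all because some genes have several starts. The E-box was present in 2 of the 15 (Bax and 1 of Bbc3) and in 6.02% of 32851 windows of the same length over all genes. The FOXO site was present in 2 (Bcl2l11 and 1 of Bbc3) and in 3.17% of all windows, and the p53 half-site in 1 (Bax) and in 7.13%. An interferon response element was present in 0 of the 15 and in 2.98% of all windows. These are matches of letters only.

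All 3 anti-apoptotic members were higher in CAR-Trem2-Ms on the count scale, by 1.5 to 1.88-fold, while on log2(TPM + 1) Mcl1 was lower and the other two did not pass. Mcl1 (ENSMUSG00000038612, chromosome 3, 95658788 to 95663176, plus strand, GRCm38) was the most abundant of them. Replicates 1, 2 and 3 of CAR-Ms held 287.1, 291.6 and 297.5 CPM of it, and those of CAR-Trem2-Ms 436.5, 446.4 and 434.0 CPM. Every CAR-Trem2-Ms sample lay above every CAR-Ms sample, and the spread within each group was small beside the gap. The level rose from 292.1 ± 5.20 to 439.0 ± 6.56 CPM (SD, n = 3 each), a log2 difference of 0.59 ± 0.03 (SE; edgeR, adjusted p = 3.2e-17). In TPM the order of the groups was the opposite, with 194.3, 217.8 and 227.6 in CAR-Ms against 161.4, 168.6 and 165.2 in CAR-Trem2-Ms. On log2(TPM + 1) the change was -0.36 (limma, adjusted p = 0.00063), which is 0.27 above the median of all genes. With GC content and transcript length regressed out of the count fold changes, it was 0.35.

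Bcl2l1 (ENSMUSG00000007659, chromosome 2, 152780668 to 152831728, minus strand) encodes BCL-XL. It read 35.5, 36.2 and 38.9 CPM in CAR-Ms against 65.1, 67.3 and 68.3 CPM in CAR-Trem2-Ms, so that the lowest CAR-Trem2-Ms sample was well above the highest CAR-Ms sample. The rise was 1.81-fold (log2 0.86 ± 0.07 SE; edgeR, adjusted p = 3.9e-12). Its TPM values were nearly level, at 29.2 ± 2.13 and 32.1 ± 1.02 (SD, n = 3 each), and the change of 0.13 on log2(TPM + 1) did not pass (limma, adjusted p = 0.11). It was 0.57 with GC content and length regressed out. The counts do not separate the long anti-apoptotic form from the short pro-apoptotic splice form of this gene.

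Bcl2 (ENSMUSG00000057329, chromosome 1, 106538178 to 106714274, minus strand), after which the family is named, was the least abundant member. It had 118, 94 and 113 reads in CAR-Ms against 172, 117 and 149 in CAR-Trem2-Ms, equal to 7.96, 5.67 and 7.44 CPM and 14.4, 12.4 and 12.7 CPM. The groups did not overlap, but CAR-Ms replicate 2 and CAR-Trem2-Ms replicate 1 stood off from the others of their group. The rise was 1.88-fold (log2 0.91 ± 0.17 SE; edgeR, adjusted p = 1.4e-05), with the widest standard error of the 10. On log2(TPM + 1) it was 0.14 and did not pass (limma, adjusted p = 0.38), whereas with GC content and length regressed out it was 1.36, above the value of every other member in that fit. Exons of Bcl2 overlap those of D630008O14Rik on the opposite strand, for which no counts are given.

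The effectors moved in opposite directions under every scaling tried. Bax (ENSMUSG00000003873, chromosome 7, 45461697 to 45466898, minus strand), whose protein moves from the cytosol to mitochondria when it is activated, read 109.0, 103.8 and 107.0 CPM in CAR-Ms. In CAR-Trem2-Ms it read 253.2, 271.4 and 268.9 CPM. The groups were far apart, and CAR-Trem2-Ms replicate 1 lay somewhat below the others of its group. The means of 106.6 ± 2.62 and 264.5 ± 9.85 CPM (SD, n = 3 each) gave a rise of 2.48-fold (log2 1.31 ± 0.04 SE; edgeR, adjusted p = 3.4e-22), the largest of the 10 on the count scale, where 13.2% of all tested genes had a higher log2 fold change. Bax was also higher on log2(TPM + 1), by 0.60 (limma, adjusted p = 2.7e-06). Its change was 0.68 with GC content and length regressed out, less than that of Bcl2. The transcripts of Bax hold 58.4% GC, more than 90.7% of tested genes. Exons of Bax overlap those of Gm45808 on the same strand. Gm45808 held 7 to 21 reads per sample in CAR-Ms against 11 to 13 in CAR-Trem2-Ms.

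Bak1 (ENSMUSG00000057789, chromosome 17, 27019810 to 27029009, minus strand), the effector that resides in the mitochondrial membrane, read 161.4, 169.3 and 156.8 CPM in CAR-Ms. It read 109.5, 102.0 and 100.1 CPM in CAR-Trem2-Ms, with every sample below every CAR-Ms sample. Bak1 fell by 0.65 on the log2 scale (SE 0.05; edgeR, adjusted p = 2.3e-13), from 162.5 ± 6.32 to 103.9 ± 4.97 CPM (SD, n = 3 each). With GC content and length regressed out the change was -1.05, and on log2(TPM + 1) it was -1.51 (limma, adjusted p = 5.5e-07). Exons of Bak1 overlap those of Ggnbp1 on the opposite strand, whose 2 entries in the table held 0 to 39 reads per sample in CAR-Ms against 21 to 153 in CAR-Trem2-Ms. Counting is not stated to use strand, so reads of the overlap cannot be told apart.

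Because both effectors were read in the same library, their ratio does not depend on any scaling factor. The Bax to Bak1 ratio, a pair chosen after the values were seen, was 0.675, 0.613 and 0.682 in counts in CAR-Ms. In CAR-Trem2-Ms it was 2.31, 2.66 and 2.69. More reads thus fell on Bak1 in every CAR-Ms library and on Bax in every CAR-Trem2-Ms library, a change of 3.88-fold. Per transcript length, in TPM, Bax led in both groups, at 1.48 to 1.71 times Bak1 in CAR-Ms and 5.95 to 7.69 times in CAR-Trem2-Ms.

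**Figure D2:**
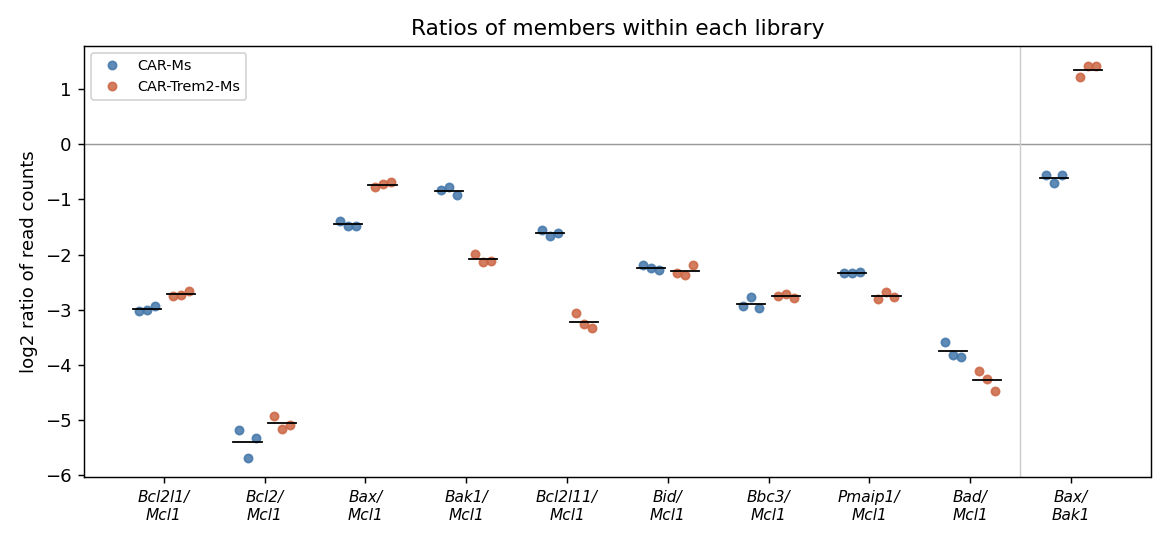
Each point is the log2 ratio of the read counts of 2 members in 1 library, with blue for CAR-Ms, orange for CAR-Trem2-Ms and a black line at the mean of 3. Bax against Bak1 goes from a mean of -0.61 to 1.35, and Bcl2l11 against Mcl1 from -1.61 to -3.22, while Bid and Bbc3 against Mcl1 overlap between the groups.

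Among the BH3-only members, Bcl2l11 was lower, Bid, Bbc3 and Pmaip1 were higher on the count scale and Bad did not pass, while on log2(TPM + 1) Bid, Pmaip1 and Bad were lower and with GC content and length regressed out Bbc3 and Bad were negative. Bcl2l11 (ENSMUSG00000027381, chromosome 2, 128126038 to 128162547, plus strand) encodes BIM, which binds all anti-apoptotic members and is known to rise when growth factors are withdrawn. It read 98.0, 91.7 and 97.9 CPM in CAR-Ms against 52.4, 46.4 and 43.3 CPM in CAR-Trem2-Ms. All 3 CAR-Trem2-Ms samples were far below CAR-Ms. The level was 2.02-fold lower (log2 -1.01 ± 0.07 SE; edgeR, adjusted p = 2.7e-14), and 14.2% of tested genes had a lower log2 fold change. This fall was also seen on log2(TPM + 1), at -1.65 (limma, adjusted p = 1.1e-06), and with GC content and length regressed out, at -1.05.

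Bbc3 (ENSMUSG00000002083, chromosome 7, 16308393 to 16318205, plus strand) encodes PUMA, a p53 target. It read 37.6, 42.6 and 38.0 CPM in CAR-Ms against 64.6, 67.9 and 62.8 CPM in CAR-Trem2-Ms, without overlap. The rise was 1.65-fold (log2 0.72 ± 0.07 SE; edgeR, adjusted p = 3.1e-10), and 0.24 on log2(TPM + 1) (limma, adjusted p = 0.015). The direction turned to -0.42 with GC content and length regressed out. Bbc3 transcripts hold 68.6% GC, more than 99.8% of tested genes.

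Bid (ENSMUSG00000004446, chromosome 6, 120891930 to 120916853, minus strand) links death receptors to mitochondria after cleavage by caspase 8. It read 63.3, 61.3 and 61.3 CPM in CAR-Ms against 86.5, 86.1 and 94.6 CPM in CAR-Trem2-Ms. Every CAR-Trem2-Ms sample was higher, and the rise was 1.44-fold (log2 0.52 ± 0.06 SE; edgeR, adjusted p = 2.5e-09). On log2(TPM + 1) the change was -0.20 (limma, adjusted p = 0.011), 0.43 above the median of all genes. Exons of Bid overlap those of Bcl2l13 on the opposite strand, and Bcl2l13 fell, with 1556 to 1644 reads per sample in CAR-Ms against 427 to 545 in CAR-Trem2-Ms.

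Pmaip1 (ENSMUSG00000024521), which encodes NOXA, a partner of MCL1 that promotes its degradation, read 57.0, 57.7 and 59.3 CPM in CAR-Ms against 62.0, 69.8 and 63.6 CPM in CAR-Trem2-Ms. The groups did not overlap, by a narrow margin, and the rise was 1.12-fold (log2 0.16 ± 0.06 SE; edgeR, adjusted p = 0.02). The call was lost without CAR-Ms replicate 1 (0.14, adjusted p = 0.082), CAR-Ms replicate 2 (0.15, adjusted p = 0.073) or CAR-Trem2-Ms replicate 2 (0.11, adjusted p = 0.11), with total-count scaling (0.04, adjusted p = 0.58), with DESeq2 (adjusted p = 0.065) and with no filter on low counts (adjusted p = 0.098). On log2(TPM + 1) the change was -0.53 (limma, adjusted p = 0.00015), and with GC content and length regressed out it was 0.42.

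Bad (ENSMUSG00000024959, chromosome 19, 6941861 to 6951899, plus strand), which survival kinases keep inactive by phosphorylation, read 23.9, 20.6 and 20.6 CPM in CAR-Ms against 25.2, 23.4 and 19.6 CPM in CAR-Trem2-Ms. The groups overlapped, with the lowest value of all in CAR-Trem2-Ms replicate 3. The difference was 0.07 ± 0.11 (log2, SE; edgeR, adjusted p = 0.59), with a 95% interval of -0.16 to 0.29. It was called higher with upper quartile factors, at 0.30 (adjusted p = 0.018), and lower on log2(TPM + 1), at -0.67 (limma, adjusted p = 0.0011), and was at -0.54 with GC content and length regressed out. Exons of Bad overlap those of Gpr137 on the opposite strand, which held 228 to 288 reads per sample in CAR-Ms against 312 to 401 in CAR-Trem2-Ms, so the reads of Bad carry the same doubt as those of Bak1.

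**Figure D3:**
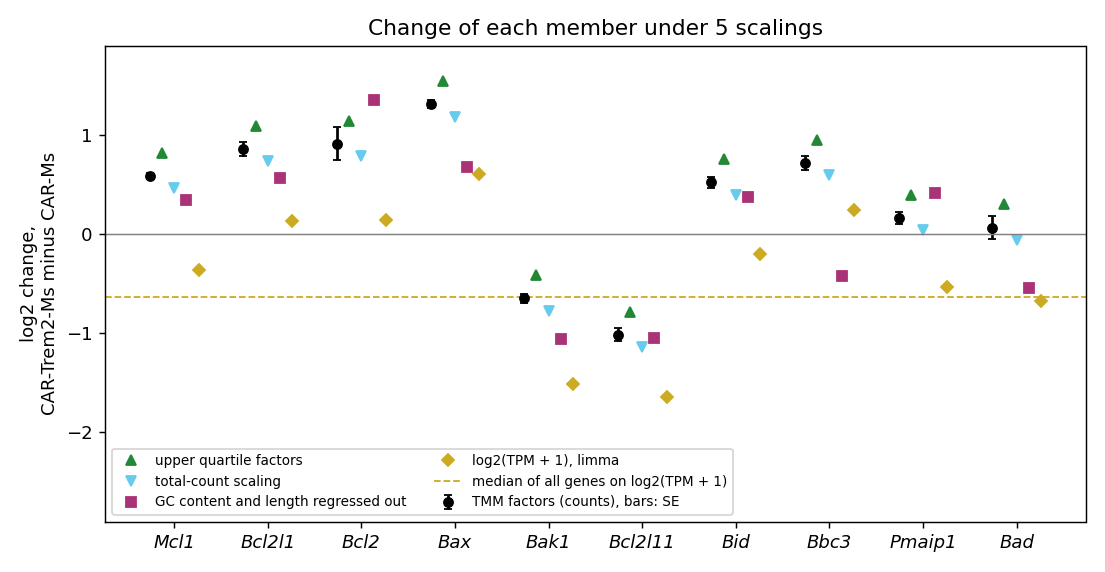
The log2 change of each member (CAR-Trem2-Ms minus CAR-Ms) is plotted under 5 scalings, with SE bars on the main count fit and a dashed line at the median of all genes on log2(TPM + 1), -0.63. Bax, Bcl2 and Bcl2l1 stay above 0 and Bak1 and Bcl2l11 stay below 0 under all 5, whereas Mcl1, Bid, Bbc3, Pmaip1 and Bad have points on both sides.

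Ratios to Mcl1 within each library show the members relative to the most abundant of the anti-apoptotic members, again free of scaling factors. Of the 9 other members, 7 had ratios that did not overlap between the groups, a share no higher than the 83.2% of all tested genes with such ratios to Mcl1. Bcl2l11 went from 0.342, 0.314 and 0.329 reads per Mcl1 read in CAR-Ms to 0.120, 0.104 and 0.0997 in CAR-Trem2-Ms, 3.05-fold lower. Bak1 went from 0.527 to 0.581 in CAR-Ms to 0.228 to 0.251 in CAR-Trem2-Ms, 2.35-fold lower, and Bax from 0.356 to 0.380 to 0.580 to 0.620, a change of 1.65-fold upward. Pmaip1 and Bad were 1.34-fold and 1.44-fold lower relative to Mcl1. Bcl2l1 and Bcl2 were 1.21-fold and 1.26-fold higher. Bid and Bbc3 kept ratios that overlapped between the groups, at 0.206 to 0.220 and 0.193 to 0.218 for Bid and at 0.128 to 0.146 and 0.145 to 0.152 for Bbc3. In TPM the Bbc3 ratio to Mcl1 did not overlap and was 1.53-fold higher, the Bad ratio overlapped, and the mean difference of Bid, -0.07 in counts, was 0.16.

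Levels of different genes can be compared per length, in the authors' TPM. The order in CAR-Ms was Bax (269.6 ± 5.27 TPM, SD, n = 3), Mcl1 (213.2 ± 17.2), Bak1 (172.3 ± 11.1), Bid (51.5 ± 1.18), Bad (45.2 ± 5.38), Bbc3 (41.1 ± 1.57), Bcl2l11 (40.2 ± 2.29), Pmaip1 (36.9 ± 1.33), Bcl2l1 (29.2 ± 2.13) and Bcl2 (1.56 ± 0.29). The ranges of Bad, Bbc3 and Bcl2l11 overlapped with one another. In CAR-Trem2-Ms the order was Bax (410.6 ± 18.9), Mcl1 (165.1 ± 3.58), Bak1 (59.7 ± 5.23), Bbc3 (48.9 ± 4.30), Bid (44.7 ± 2.54), Bcl2l1 (32.1 ± 1.02), Bad (28.0 ± 3.79), Pmaip1 (25.2 ± 1.72), Bcl2l11 (12.2 ± 1.34) and Bcl2 (1.81 ± 0.12). There Bbc3 overlapped with Bid, and Bad with Pmaip1. Bax, Mcl1 and Bak1 led in both groups and Bcl2 was last in both, while Bcl2l11 moved to the place just above Bcl2.

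**Figure D4:**
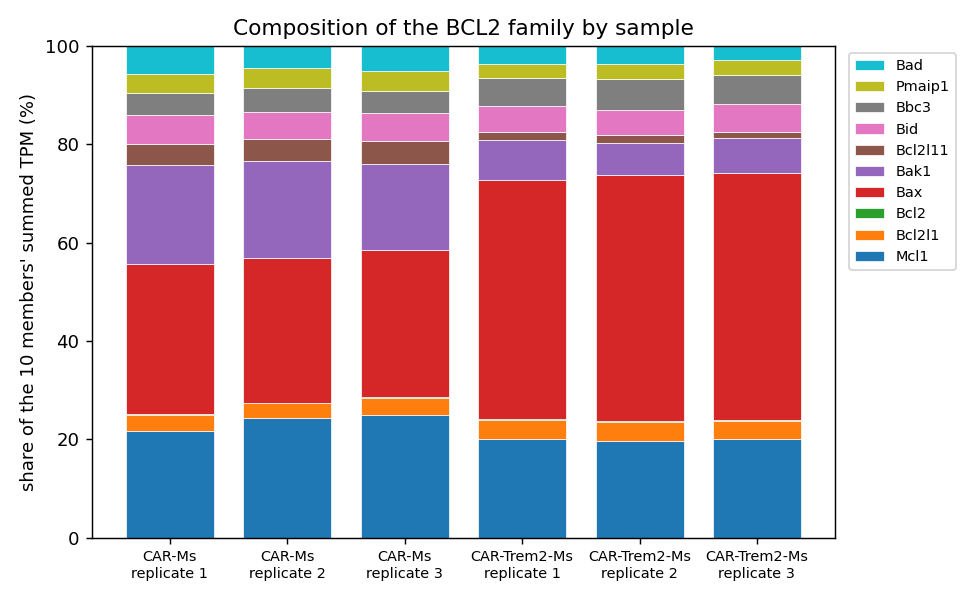
Each bar is 1 sample, split into the share of each member in the summed TPM of the 10 members, in percent. The Bax segment goes from 29.4 to 30.5% in the CAR-Ms bars to 48.5 to 50.2% in the CAR-Trem2-Ms bars, and the Bak1 and Bcl2l11 segments shrink.

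As a share of the summed TPM of the 10 members, Bax went from 29.4 to 30.5% in CAR-Ms to 48.5 to 50.2% in CAR-Trem2-Ms. Bak1 went from 17.5 to 20.1% to 6.50 to 8.15%. Both effectors together took 49.1 ± 1.55% and 56.8 ± 0.38% (SD, n = 3 each). The 3 anti-apoptotic members took 27.1 ± 1.75% and 24.0 ± 0.21%, with ranges of 25.2 to 28.6% and 23.8 to 24.2%. This share leaves out the survival genes of A1 and the anti-apoptotic Bcl2l2. Mean TPM went from 35.9 to 132.7 for Bcl2a1b, from 29.4 to 61.7 for Bcl2a1d and from 8.70 to 8.05 for Bcl2l2. Shares that include these genes were not computed, so the fall holds for the listed members only. The 5 BH3-only members took 23.9 ± 0.49% and 19.2 ± 0.44%, and within them Bcl2l11 went from 4.46 ± 0.21% to 1.47 ± 0.18%. These shares count transcripts and not protein.

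The list of other BCL2 family genes held 16, of which 11 had enough reads to be tested. Of these, 7 were higher and 4 lower, with a median log2 fold change of 0.87, against 4 higher, 4 lower and a median of -0.06 on log2(TPM + 1). Of all tested genes, 40.9% were higher and 40.1% lower, and 17.5% and 64.2% on log2(TPM + 1). The A1 genes rose most. Bcl2a1b read 11.4, 12.4 and 11.1 CPM in CAR-Ms against 77.5, 57.9 and 77.7 CPM in CAR-Trem2-Ms, and Bcl2a1d 11.9, 11.7 and 7.77 and then 39.1, 36.7 and 32.4 CPM. Their log2 fold changes were 2.61 ± 0.10 and 1.78 ± 0.13 (SE; edgeR, adjusted p = 4.2e-19 and 5.3e-13), above those of all 10 members. Bcl2a1a and Bcl2a1c, at 0.18 and 0.25 CPM in CAR-Ms, rose to 2.13 and 0.91 CPM (adjusted p = 8.4e-06 and 0.012), and the call of Bcl2a1c was lost without CAR-Ms replicate 3 (1.48, adjusted p = 0.059) and with no filter on low counts (adjusted p = 0.051). Bcl2a1c did not reach 10 reads in every sample of a group and has no value under that filter. These near-identical copies can share reads, so their split is uncertain. Summed over the 4 genes, A1 read 23.7, 24.5 and 19.4 CPM in CAR-Ms against 119.0, 98.3 and 113.1 CPM in CAR-Trem2-Ms, a ratio of means of 4.89.

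Bmf, a BH3-only gene, rose by 1.18 ± 0.16 (log2, SE; edgeR, adjusted p = 1.0e-07) from 6.62 to 15.0 CPM, but was at -0.06 on log2(TPM + 1), where CAR-Ms replicate 1 (6.53 TPM) stood off from replicates 2 and 3 (2.17 and 2.61). Bcl2l2, which encodes the anti-apoptotic BCL-W, rose by 0.65 ± 0.11 from 17.7 to 27.7 CPM, at -0.10 on log2(TPM + 1), and Bcl2l12 rose by 0.87 ± 0.23 from 4.14 to 7.59 CPM, at 0.04 on log2(TPM + 1) (limma, adjusted p = 0.87) and 0.25 with GC content and length regressed out. Bnip3 and Bnip3l, outer membrane proteins that mark mitochondria for autophagy, went from 51.4 to 20.2 CPM and from 91.2 to 47.4 CPM, and Bcl2l13, a mitophagy receptor, from 102.2 to 45.1 CPM. These 3 genes fell by 1.36, 0.94 and 1.18 on the log2 scale, and no sample overlapped. Bcl2l15 went from 1.72 to 0.83 CPM (edgeR, adjusted p = 0.047), with overlap between the groups and a call that was lost with DESeq2 (adjusted p = 0.073), limma-voom (0.089), upper quartile factors (0.12), no filter on low counts (0.057) and the replicate block (0.062), and without CAR-Ms replicate 1 (-0.67, adjusted p = 0.27) or 3, or CAR-Trem2-Ms replicate 2 or 3. Bcl2l10, Bok, Bik, Hrk and Bcl2l14 had too few reads to be tested.

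Downstream of the mitochondria, 6 of 10 genes of the apoptosome, of released mitochondrial factors and of executioner caspases were lower and 2 were higher (median -0.49). There were 8 lower and 1 higher on log2(TPM + 1), and with upper quartile factors 5 were lower and 4 higher. Of all tested genes, 40.1% were lower and 40.9% higher in the main fit. These shares were 64.2% and 17.5% on log2(TPM + 1), and 31.6% and 50.1% with upper quartile factors. Apaf1, the scaffold that binds cytochrome c, fell by 1.13 ± 0.07 (log2, SE; edgeR, adjusted p = 3.2e-15), from 88.4 to 40.3 CPM. Htra2, a released protease that blocks caspase inhibitors, went from 46.1 ± 1.49 to 128.2 ± 4.61 CPM (SD, n = 3 each), 2.78-fold higher.

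The 8 inhibitor of apoptosis genes were split, with 3 higher, 3 lower and 2 that did not pass. Their median was -0.05, and it was 0.19 with upper quartile factors (5 higher, 2 lower) and -0.78 on log2(TPM + 1) (2 higher, 5 lower). The shares of all tested genes were 40.9% higher and 40.1% lower in the main fit. They were 50.1% and 31.6% with upper quartile factors, and 17.5% and 64.2% on log2(TPM + 1). Naip5 and Naip6, near-identical sensors of bacterial flagellin whose reads may be shared, rose 4.58-fold and 3.38-fold, and Birc6, a large ubiquitin ligase that restrains caspases, fell by 0.92 ± 0.03 (log2, SE). In the death receptor list, 2 of 10 were higher, 4 lower and 4 did not pass (median -0.03; 2 higher and 6 lower on log2(TPM + 1)). The adaptors Traf1 and Tradd of the TNF receptors rose by 1.60 ± 0.15 and 1.39 ± 0.16, while Ripk1, a kinase of the same complexes, fell by 1.44 ± 0.06 from 122.6 to 45.4 CPM.

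In the list of p53 and its targets, 4 of 13 tested genes were higher and 8 lower, with a median of -0.34. With limma on log2(TPM + 1), 11 of 12 were lower, against 64.2% of all genes. In the main fit 40.9% of all genes were higher and 40.1% lower. Mdm2, the ubiquitin ligase that p53 induces against itself, went from 269.6 ± 2.85 to 154.9 ± 3.21 CPM (SD, n = 3 each) and fell by 0.80 ± 0.04 (log2, SE; edgeR, adjusted p = 2.9e-18). The stress gene Sesn2 and the nuclease gene Aen fell by 0.84 and 0.66 on the log2 scale. Trp53 and Cdkn1a, among the 4 higher genes, rose by 0.161 and 0.225 on the log2 scale in counts. Their mean TPM went from 297.1 to 205.8 and from 293.7 to 214.6. Bbc3, a p53 target, was counted among the members and not in this list.

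Partners of the family were lower more often than higher, 10 against 6 of 16 (median -0.43), and 11 against 2 on log2(TPM + 1). Among all tested genes, 40.1% were lower and 40.9% higher in the main fit, and 64.2% and 17.5% on log2(TPM + 1). With total-count scaling, 44.7% of all genes were lower and 36.4% higher. Ywhaz and Ywhaq, 14-3-3 proteins of the kind that hold phosphorylated BAD in the cytosol, fell by 1.18 ± 0.03 and 0.99 ± 0.03 (log2, SE), and Itpr1, a calcium channel bound by BCL2, by 1.10 ± 0.08. Of 12 tested enzymes that control the stability or activity of family members, 6 were lower, 3 higher and 3 not past the test (median -0.21, but 0.02 with upper quartile factors, 6 lower and 6 not past the test with total-count scaling, and 12 of 12 lower on log2(TPM + 1)). Mapk8, the kinase JNK1, fell by 1.55 ± 0.07, Usp9x, a deubiquitinase that stabilises MCL1, by 1.47 ± 0.03, and Gsk3b, a kinase that marks MCL1 for degradation, by 1.22 ± 0.05.

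**Figure D5:**
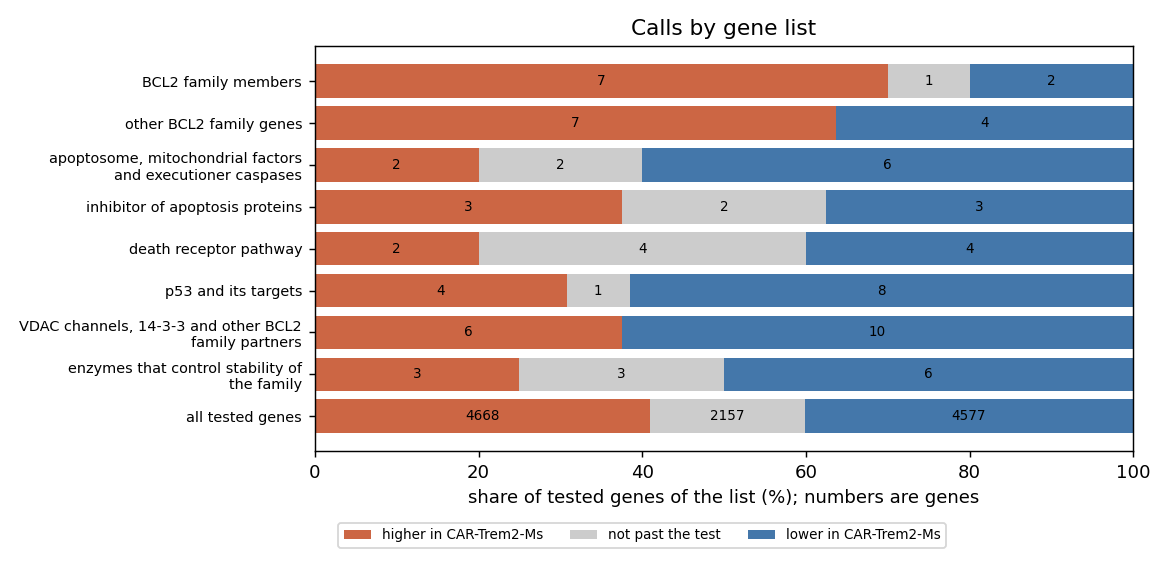
Each bar splits the tested genes of a list into those called higher in CAR-Trem2-Ms (orange), not past the test (grey) and lower (blue), in percent on the count scale, with the number of genes printed in each segment. The 2 BCL2 family bars have more higher than lower calls, and the bar of all tested genes, with 4668 higher and 4577 lower, is the background.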

How the data were processed

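RNA of 3 CAR-Ms and 3 CAR-Trem2-Ms samples was sequenced, with libraries from a SMARTER mRNA-Seq kit per the labels' protocols. The authors deposited 1 table of raw read counts and TPM per gene, per the file headers. The deposited log2 ratio was checked and is that of the group means of TPM. No source used here gives the tool behind the deposited p-value. The submitters' processing notes name StringTie 1.3.1, HISAT2, Bowtie2 2.2.8, fastp 0.18.0 and the build mm10. The counting tool, the annotation release and any use of strand: not given in the sources used here.

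Counts were fitted over all genes with edgeR 4.0.16 in R 4.3.3 (quasi-likelihood test, TMM factors, filterByExpr), and TPM, as log2(TPM + 1) over genes of at least 1 TPM in 3 samples, with limma 3.58.1. Only the edgeR fit was also run on simulated counts, in which a small set of genes changed in balanced directions. That run cannot judge the choice of scale, because most genes differ in the real data. Coordinates are from GENCODE M21 (GRCm38). Replicate pairs differed by 2.19 to 3.34 chi-square units per degree of freedom, above sampling noise, so each sample counted as 1 replicate. The members and lists were chosen with earlier results of these data known. All 10 members were named, every tested gene of the other BCL2 family list, and from each other list the 3 called genes of largest change with at least 50 reads. One gene that this rule names is not reported here. Alternatives were RLE, upper quartile and total-count scaling, filters, DESeq2 1.42.0, limma-voom, TPM with another pseudocount, a replicate block, leaving out each sample or mitochondrially encoded genes, stricter thresholds, and a loess fit on GC content and length. Intervals cover the spread between samples only.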

Additional observations from a re-analysis of the deposited data

How the results depend on the processing

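Bax, Bak1 and Bcl2l11 kept their direction under all 18 alternatives, and their calls under the 17 with a test. Bcl2 and Bcl2l1 also kept their direction under all 18. They lost their calls on TPM, at 0.144 and 0.131 with a pseudocount of 1 and 0.222 and 0.135 with 0.1. On TPM, 2 members were higher and 6 lower (1890 and 6946 of all genes with a pseudocount of 1, and 1881 and 6927 with 0.1). The reversed values with a pseudocount of 1 and of 0.1 were -0.365 and -0.366 for Mcl1, -0.2 and -0.204 for Bid, -0.533 and -0.549 for Pmaip1, -0.673 and -0.691 for Bad, -0.102 and -0.113 for Bcl2l2 and -0.064 and -0.051 for Bmf. Bad, not called, was also at -0.541 with GC content and length regressed out, -0.057 with total-count scaling and -0.024 without CAR-Trem2-Ms replicate 1 (range over left-out samples -0.024 to 0.168), and Bbc3 at -0.422 in the GC and length fit. Bid against Mcl1 was at 0.162 in TPM. The cause was not tested. With a 2-fold minimum, which by construction takes fewer genes, 1 member was higher and 1 lower (2136 and 1629 of all genes). The GC and length fit has no test and gives no count. Leaving out each sample gave 6 to 7 members higher and 2 lower, and 4497 to 4662 genes higher and 4414 to 4575 lower. The replicate block gave 7 and 2 members and 4627 and 4561 genes, and of the named genes Bcl2l15 lost its call (adjusted p = 0.062). Deviations of same-numbered samples correlated at 0.028, -0.027 and 0.032, which shows no sign of pairing. This cannot exclude pairing, because the deviations may be mostly technical. Depth limits Bcl2, with 94 to 172 reads per sample.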

Other observations

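The ratio of deposited reads to deposited TPM shows the transcript length that each library was given for a gene, and it was compared with its median over 9723 genes. It did not overlap between the groups for 3 of the 10 members, against 54.1% of these genes. Mcl1 had 1.18-fold more reads per TPM in CAR-Trem2-Ms, a log2 shift of 0.24 (from -0.02, -0.16 and -0.20 to 0.12, 0.11 and 0.10), where 94.9% of genes had a lower shift. Bak1 shifted by 0.17 and Bbc3 by -0.24, near the other end, with 3.5% of genes below it. For these 3 genes the count and TPM scales therefore differ by more than a shift common to all genes. Which transcript forms underlie the lengths is not shown in the table.

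In the authors' deposited table, the log2 ratio of Mcl1 was -0.37 beside an adjusted p of 4e-81, and that of Bid -0.20 beside 2.1e-15. Bcl2l1 stood at 0.13 beside 5.1e-29, Bad at -0.69 beside 0.84 and Pmaip1 at -0.55 beside 0.083. For Bad and Pmaip1, edgeR on counts with no filter gave adjusted p of 0.84 and 0.098. On log2(TPM + 1), limma gave 0.0011 and 0.00015. A small deposited p therefore need not refer to the deposited ratio. The deposited ratio follows TPM, in which 4 of the 10 members were above 0 and 6 below, whereas the count fit placed Mcl1 and Bid higher.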
